A study of Homo sapiens with 12 samples.

Results

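The genes described here code for 51 core proteins of the spliceosome, the RNA-protein machine that removes introns from pre-mRNA. They were chosen by name from the rows of the deposited table of counts, which holds 59653 gene symbols, and were sorted into 7 subcomplexes: the Sm ring (7 genes), the U1 snRNP (3), the U2 snRNP with the factors of the 3' splice site (14), the U5 snRNP and tri-snRNP (8), the Prp19 complex and catalytic core (8), the helicases (8) and the core of the exon junction complex (3). All 51 were among the 24671 genes with enough counts to be tested, and each had between 323 and 97437 counts in every library.

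RNA was sequenced from human neurons that had been made from induced pluripotent stem cells, IMR-90, which began as lung fibroblasts. Cells of 6 libraries were given a negative control siRNA (siNC) and cells of the other 6 an siRNA against ZCCHC17 (siZCC). No other treatment or allele is named for either group. ZCCHC17 is a zinc knuckle protein that has been linked to RNA processing. All libraries come from 1 line, and the labels do not say whether the libraries of a group came from separate cultures or differentiations, so the p-values measure the spread between these libraries, which may be technical. The sample titles carry the letters NPC, which the labels do not explain, while the other labels call the cells neurons. Values are counts-per-million (CPM) scaled by TMM factors, and fold changes are log2 of siZCC over siNC, so a negative value is lower after ZCCHC17 siRNA. A gene is called changed where the Benjamini-Hochberg adjusted p of edgeR's quasi-likelihood test, over all genes tested, is under 0.05.

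The spliceosome is built anew on each intron from small nuclear ribonucleoproteins (snRNPs). Sm proteins form a ring around the U1, U2, U4 and U5 snRNAs, U1 pairs with the 5' splice site, and U2 with SF3A and SF3B binds the branch point beside U2AF at the 3' splice site. The U4/U6.U5 tri-snRNP then joins, the Prp19 complex enters as the catalytic core forms, and DEAD-box and DEAH-box helicases drive the changes of structure at each step. The exon junction complex is laid down on the spliced mRNA. Neurons use alternative exons heavily, and the core proteins are needed in every cell type.

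ZCCHC17 itself was measured at 54.0, 57.2 and 61.0 CPM (lowest, median and highest siNC library) and at 9.37, 9.85 and 10.6 CPM in siZCC. The groups did not overlap, and the log2 fold change was -2.51 (SE 0.0402, edgeR adjusted p = 3.52e-17). The mRNA that the siRNA targets was therefore at 17.6% of control, and the labels of all 12 libraries matched it. Depth was 90755953 to 120023356 counts for siNC and 76115083 to 105389055 for siZCC, which was sequenced less deeply. The biological coefficient of variation was 6.55%. The counts of the 51 genes together took 0.622% to 0.638% of a siNC library and 0.604% to 0.615% of a siZCC library. On the TMM scale their summed level was 6176 to 6283 CPM in siNC and 6089 to 6223 CPM in siZCC, and here the groups overlapped. The TMM factors themselves did not overlap, at 1.0003 to 1.0163 in siNC and 0.984 to 0.998 in siZCC. Small fold changes thus depend in part on the scaling, and other scalings are given at the end.

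Of the neuron markers, 16 of 16 were detected and tested, among them MAP2 (mean 1027 CPM in siNC), TUBB3 (14.2 CPM) and RBFOX3 (1.27 CPM). Markers of neural progenitors (12 of 12), of astrocytes (10 of 10) and of dividing cells (23 of 23) were detected too, with SOX2 at 621 CPM, GFAP at 616 CPM and MKI67 at 205 CPM in siNC. The cultures thus held RNA of neurons beside that of progenitor, astrocyte and proliferation genes. Of the microglia and macrophage markers 3 of 9 passed the filter on low counts, with AIF1, CX3CR1, P2RY12, C1QA, C1QB and TMEM119 at 15 counts or fewer in every library, and SOX10 and MOG of the oligodendrocyte list had 8 or fewer. In such bulk libraries, fewer cells of a type and less RNA per cell cannot be told apart.

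Most core spliceosome transcripts stayed near their control level when ZCCHC17 fell. By edgeR's test 11 of the 51 were called (21.6%), 9 lower and 2 higher, while 22.2% of all genes tested were called, 10.8% lower and 11.4% higher. Among the 12728 genes at least as abundant as the lowest member, U2AF1 (mean 4.77 CPM), the share called was 32%. The share of the 51 is thus close to that of all genes tested and below that of these 12728 genes, a difference that was not tested. The 12728 genes share only this floor with the 51, whose median was 70.1 CPM in siNC. They were not matched to the 51 in level. The 17.6% called lower and 3.92% called higher stand beside the 10.8% and 11.4% of all genes without a test of the difference. The counts per subcomplex and per further list given below stand beside these same shares, and none was tested as a set. The 9 lower genes were SNW1, SNRPD3, SNRPB2, DDX46, SYF2, CDC5L, SF3B4, PLRG1 and DHX15, and the 2 higher ones SNRPA and SF3B2.

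The changes were small. Fold changes of the 51 ran from -0.26 to 0.11, with a median of -0.04, and 35 lay below 0 and 16 above it (68.6% below). Over all genes tested the median was -0.0016 and 50.4% lay below 0. The median size of change, regardless of sign, was 0.049 among the 51 and 0.075 among the 12728 abundant genes. The 95% interval of the fold change lay within 1.2-fold in either direction for 50 of the 51 genes, or 98.0%, against 80.5% of the abundant genes. The exception was SNW1. In 7 of the 51 genes (13.7%) the siNC and siZCC libraries did not overlap, against 9.74% of all genes tested. The share among the abundant genes alone was not computed, and the difference was not tested. The 7 were SNRPD3, SNRPB2, SNW1, PLRG1, BUD31, DDX46 and DHX15, all lower in siZCC, of which BUD31 did not pass the test.

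**Figure D1:**
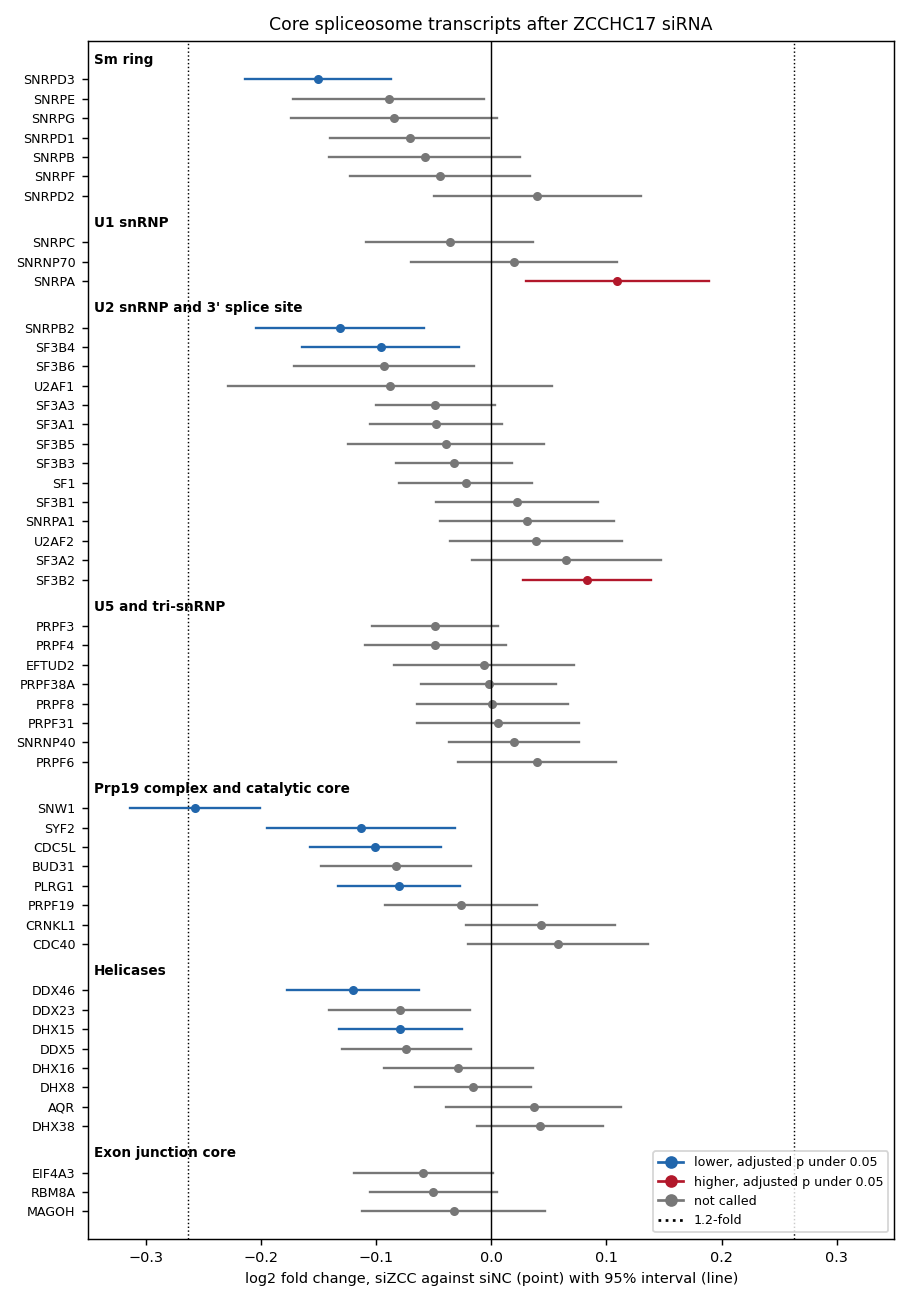
Log2 fold change of each of the 51 core spliceosome transcripts, siZCC against siNC (points, with the 95% interval as a line), by subcomplex, with dotted lines at 1.2-fold. The 9 blue genes were called lower and the 2 red ones higher, the intervals of the grey genes span -0.23 to 0.15, and SNW1 alone reaches past the 1.2-fold line.

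The calls were unequally firm. SNRPD3, SNRPB2, CDC5L, SNW1 and DDX46, 5 of the 11, were called whichever of the 12 libraries was left out. The other 6 (SNRPA, SF3B2, SF3B4, PLRG1, SYF2 and DHX15) were called in 4 to 7 of those 12 fits and kept their direction in all of them.

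The stretches of genome just before the starts of those 5 genes, and the spacer between SNRNP40 and its neighbour ZCCHC17, show what sits at the promoters of the genes that the results turn on. They are from RefSeq (GRCh38.p14), each the 250 bases before the annotated start on the strand of the gene, written 5' to 3' in lower case. Capitals mark, on either strand, the ETS motif (CCGGAAG), the GC box bound by SP and KLF factors (GGGCGG), the CCAAT box of NFY (CCAAT) and the core of the ZBTB33 motif (TCTCGCGAG), which overlaps its own reverse complement. Some GENCODE v29 transcripts of these 5 genes start inside the stretch shown.
SNRPD3: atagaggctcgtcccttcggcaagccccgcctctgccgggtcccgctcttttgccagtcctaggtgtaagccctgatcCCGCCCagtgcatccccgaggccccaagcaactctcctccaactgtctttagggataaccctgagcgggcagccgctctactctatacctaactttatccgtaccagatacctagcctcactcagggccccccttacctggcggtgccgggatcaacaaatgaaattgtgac
SNRPB2: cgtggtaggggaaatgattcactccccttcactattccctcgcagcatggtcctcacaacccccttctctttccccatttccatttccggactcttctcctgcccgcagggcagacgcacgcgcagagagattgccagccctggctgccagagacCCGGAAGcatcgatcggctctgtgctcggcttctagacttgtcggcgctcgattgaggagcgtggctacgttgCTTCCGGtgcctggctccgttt
CDC5L: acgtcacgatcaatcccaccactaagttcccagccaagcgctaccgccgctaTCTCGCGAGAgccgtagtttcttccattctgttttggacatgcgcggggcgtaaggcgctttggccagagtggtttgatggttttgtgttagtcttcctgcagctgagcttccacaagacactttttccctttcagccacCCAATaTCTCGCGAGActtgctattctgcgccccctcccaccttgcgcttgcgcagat
SNW1: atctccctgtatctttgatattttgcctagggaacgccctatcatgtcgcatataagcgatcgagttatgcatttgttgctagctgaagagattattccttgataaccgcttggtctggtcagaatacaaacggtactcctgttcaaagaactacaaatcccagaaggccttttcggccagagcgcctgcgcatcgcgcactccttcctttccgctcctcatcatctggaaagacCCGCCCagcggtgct
DDX46: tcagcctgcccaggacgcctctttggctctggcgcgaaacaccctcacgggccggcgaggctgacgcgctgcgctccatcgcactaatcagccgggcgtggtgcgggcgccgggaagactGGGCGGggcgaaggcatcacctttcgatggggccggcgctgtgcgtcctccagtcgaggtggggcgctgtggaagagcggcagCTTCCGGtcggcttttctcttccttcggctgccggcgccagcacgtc
SNRNP40 spacer: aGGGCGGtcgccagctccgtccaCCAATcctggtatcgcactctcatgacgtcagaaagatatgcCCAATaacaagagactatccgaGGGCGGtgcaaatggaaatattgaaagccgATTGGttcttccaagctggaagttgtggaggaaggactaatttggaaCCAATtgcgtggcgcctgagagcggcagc

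The 6 sequences lie on GRCh38.p14 at chr22:24555400-24555649 (plus strand, SNRPD3), chr20:16729776-16730025 (plus, SNRPB2), chr6:44387456-44387705 (plus, CDC5L), chr14:77761157-77761406 (minus, SNW1), chr5:134758529-134758778 (plus, DDX46) and chr1:31296789-31296981 (minus, SNRNP40). The last is only 193 bases long, since ZCCHC17 starts there on the other strand. RefSeq promoters were found for 48 of the 51 genes. An ETS motif stood in 26 of them (54.2%) and in 8.8% of all 27305 promoters of the same length, and a GC box in 33 (68.8%) against 42.3%. A CCAAT box stood in 16 (33.3%) against 33.0%, and a TATA box (TATAAA) in 2 (4.2%) against 11.1%. The ZBTB33 core stood in CDC5L alone (2.1%, against 0.6%), the letters GCGCATGCG of the NRF1 motif in U2AF1 alone (2.1%, against 1.8%), and AAGATGGCG of the YY1 motif in none, against 0.6%. Of the called genes 6 of 11 held an ETS motif and 8 of 11 a GC box, and of the others 20 of 37 and 25 of 37. These are matches of letters and not measured binding. The 27305 promoters were not limited to genes expressed in these cells, and promoters of genes at a like level were not compared.

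Levels in control cells differed widely between the genes. Divided by the length of the principal transcript, levels in siNC ran from 5.11 CPM per kilobase (U2AF1) to 322 CPM per kilobase (DDX5). Within a subcomplex whose proteins sit together in 1 particle, mRNA levels still differed several-fold: 2.61-fold between MAGOH (22.1 CPM per kilobase) and RBM8A (57.8) in the exon junction core, 3.97-fold between PRPF4 (15.2) and PRPF8 (60.5) in the tri-snRNP, and 9.38-fold between SNRPD1 (10.3) and SNRPD2 (96.5) in the Sm ring. In the U1 snRNP the range was from SNRPA (32.5 CPM per kilobase) to SNRNP70 (169), and in the Prp19 complex from CDC40 (6.82) to BUD31 (55.1). Helicases ranged 50.3-fold, from AQR (6.40 CPM per kilobase) to DDX5 (322), and the U2 group ran from U2AF1 to U2AF2 (133), 26.1-fold. These levels depend on the length taken: with all annotated exons as the length, the U2 group ran 187-fold, from U2AF1 (0.442 CPM per kilobase) to SF3B5 (82.8), the helicases ran 24.3-fold, and the lowest gene of the Sm ring was SNRPF (7.33). The level of U2AF1 is uncertain, since the annotated near-identical copy U2AF1L5 took 5.52 CPM in siNC beside the 4.92 CPM of U2AF1. How the authors' counting treated reads that fit both is not given in the sources used here.

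**Figure D2:**
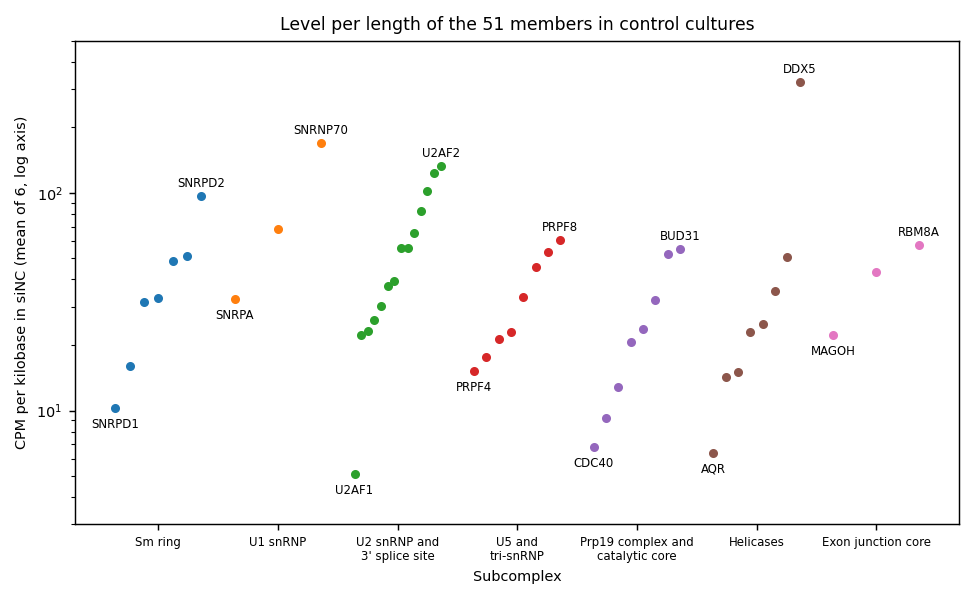
Mean level in the 6 siNC libraries of each of the 51 genes, in CPM per kilobase of the principal transcript on a log axis, by subcomplex and sorted within each. The lowest and highest gene of each subcomplex are named, with DDX5 at 322 and U2AF1 at 5.11.

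In the Sm ring 1 of 7 genes was called, SNRPD3, which fell. SNRPD3 codes for SmD3, 1 of the proteins that close the ring on the snRNA. Its siNC libraries were at 56.8, 58.0 and 60.0 CPM (lowest, median, highest) and its siZCC libraries at 49.7, 52.3 and 54.9 CPM. Every siZCC library lay below every siNC library. The log2 fold change was -0.15 (SE 0.0300, edgeR adjusted p = 0.0018), which puts siZCC at 90.1% of control (95% interval 86.2% to 94.1%). SNRPD3 lies on chromosome 22 at 24555503 to 24609980 (plus strand, GENCODE v29, GRCh38), and its exons overlap those of GUCD1 on the other strand and of GGT1. Neither passed the test, with GUCD1 at 0.07 (SE 0.0334, edgeR adjusted p = 0.127).

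The other 6 Sm genes were not called. SNRPD2 was at 0.04, and SNRPE, SNRPG, SNRPD1, SNRPB and SNRPF were between -0.09 and -0.04, with edgeR adjusted p-values from 0.117 (SNRPE) to 0.551 (SNRPD2). The median of the 7 was -0.07. Small Sm genes have many processed copies in the genome. The named pseudogenes of SNRPG in the table held as many counts as 12.8% of those of SNRPG itself, and those of SNRPE 2.89%, so reads of these genes may be split in ways that the counts do not show. SNRPD3 has none in the annotation.

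In the U1 snRNP 1 of 3 genes was called, SNRPA, which rose. SNRPA codes for the A protein of U1, which binds a stem-loop of the U1 snRNA. It was at 48.7, 52.7 and 55.5 CPM in siNC and at 53.2, 57.3 and 60.3 CPM in siZCC. The groups overlapped, with 4 siZCC libraries above the highest siNC library and 2 within the siNC range. The log2 fold change was 0.11 (SE 0.0376, edgeR adjusted p = 0.0450), or 108% of control (95% interval 102% to 114%). This call was lost when any of siNC replicates 1, 4, 5 and 6 or siZCC replicates 1, 4, 5 and 6 was left out. Over the 12 fits that left out 1 library its fold change ran from 0.089 to 0.13 and its edgeR adjusted p from 0.0197 to 0.104. It was also lost under upper quartile scaling, where the value was 0.10.

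SNRPA shares 89 exonic bases with C19orf54 on the other strand, and that gene rose more, from 22.3 ± 0.872 to 27.8 ± 1.61 CPM (SD, n = 6 each; log2 fold change 0.31, SE 0.0405, edgeR adjusted p = 4.59e-05). The library kit keeps strand, but whether the counting used it is not given in the sources used here, and the part of those reads in the SNRPA value was not tested. Both other U1 genes were not called. SNRNP70, the U1-70K protein that contacts splicing activators, was at 0.02 (95% interval -0.07 to 0.11), and SNRPC, which steadies the pairing with the 5' splice site, at -0.04 (95% interval -0.11 to 0.04).

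Among the 14 genes of the U2 snRNP and 3' splice site, 2 were called lower and 1 higher, and the median was -0.04. SNRPB2 codes for U2B'', which binds a stem-loop of U2 snRNA together with SNRPA1. SNRPB2 was at 42.8, 44.2 and 48.9 CPM in siNC and at 38.5, 41.2 and 42.2 CPM in siZCC. The groups did not overlap. SNRPB2 fell by 0.13 on the log2 scale (SE 0.0346, edgeR adjusted p = 0.0118), to 91.3% of control. Its partner SNRPA1 was not called, at 0.03 (95% interval -0.04 to 0.11).

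SF3B4 and SF3B2 code for SF3B subunits that bind each other and the pre-mRNA near the branch point, and their transcripts were called in opposite directions. SF3B4 was at 78.1, 81.3 and 87.3 CPM in siNC and at 72.6, 77.3 and 79.3 CPM in siZCC, where 5 siZCC libraries lay below the lowest siNC library. SF3B4 had a log2 fold change of -0.10 (SE 0.0322, edgeR adjusted p = 0.0406). SF3B2 was at 343.7, 360.7 and 373 CPM in siNC and at 366, 380.5 and 392 CPM in siZCC, with 5 siZCC libraries above the highest siNC library. SF3B2 had a log2 fold change of 0.08 (SE 0.0264, edgeR adjusted p = 0.0312). Of 10 other fits on all 12 libraries, 6 called SF3B2. The call was lost under upper quartile scaling, where the value was 0.07, and with no filter on low counts. It was lost too with the replicate number as a block and with GC content and length corrected.

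Each of the SF3B calls held in only 5 of the 12 fits that left out 1 library. That of SF3B4 was lost when any of siNC replicates 2, 3, 4 and 5 or siZCC replicates 2, 3 and 4 was left out; over the 12 such fits its value ran from -0.11 to -0.08 and its edgeR adjusted p from 0.0346 to 0.0843. That of SF3B2 was lost when any of siNC replicates 1, 4 and 6 or siZCC replicates 1, 3, 4 and 6 was left out, with a range of 0.07 to 0.09 and of 0.0157 to 0.0776 in edgeR adjusted p. Of the remaining U2 genes none was called. SF3B1, the scaffold of the complex and a target of splicing inhibitors, was at 0.02 (95% interval -0.05 to 0.09), and U2AF2, which binds the polypyrimidine tract, at 0.04 (95% interval -0.04 to 0.11). U2AF1, which reads the AG at the 3' splice site and had the fewest counts of all 51 genes, was at -0.09 with the widest interval, -0.23 to 0.05.

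In the U5 snRNP and tri-snRNP 0 of 8 genes were called. Their fold changes lay between -0.05 and 0.04 with a median of -0.0006, their 95% intervals between -0.11 and 0.11, and their edgeR adjusted p-values between 0.193 and 0.986. Changes larger than 0.11 in either direction lie outside all 8 intervals, and smaller ones could not be told from 0 at this spread. This holds for these 8 genes alone. SNRNP200, a U5 helicase outside the 8, was called higher and is described below. PRPF8, the scaffold around the catalytic RNA, was at 446 CPM in both groups (means) with a log2 fold change of 0.0010 (95% interval -0.06 to 0.07). EFTUD2, the GTPase beside it, was at -0.0061 (95% interval -0.08 to 0.07). The smallest p was that of PRPF3, a protein of the U4/U6 part, which was at 50.4, 51.2 and 53.9 CPM in siNC and at 49.4, 49.7 and 50.9 CPM in siZCC (log2 fold change -0.05, SE 0.0258, edgeR adjusted p = 0.193).

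SNRNP40, a WD-repeat protein of U5, shares its promoter region with the targeted gene: the starts of the pair point away from each other across the spacer, whose sequence is given with the promoters. SNRNP40 was at 35.9, 36.5 and 37.1 CPM in siNC and at 35.5, 37.0 and 38.3 CPM in siZCC. The groups overlapped, and the log2 fold change was 0.02 (SE 0.0268, 95% interval -0.04 to 0.08, edgeR adjusted p = 0.652). With ZCCHC17 at 17.6% of control, SNRNP40 was thus at 101% (95% interval 97.5% to 105%). The spacer holds 4 CCAAT boxes and 2 GC boxes. In all, 16 of the 51 genes have a protein-coding neighbour that starts within 1000 bases in the opposite direction.

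In the Prp19 complex and catalytic core 4 of 8 genes were called, all lower, and the median of its genes was -0.08. Of all genes tested 22.2% were called and 10.8% were lower, and of the abundant genes 32% were called. The difference from these shares was not tested, and 2 of the 4 calls (PLRG1 and SYF2) depended on single libraries. The summed level of all 8 genes was 484 to 507 CPM in siNC and 461 to 472 CPM in siZCC, with no overlap. The fall of SNW1 is part of that difference, and how often sums of other gene sets do not overlap was not computed. SNW1 (also called SKIP), a cofactor of transcription and splicing that sits in the catalytic core, fell most of all 51 genes. It was at 67.3, 69.4 and 72.3 CPM in siNC and at 56.7, 58.0 and 59.6 CPM in siZCC, and no library of one group came near the other. The log2 fold change was -0.26 (SE 0.0267, edgeR adjusted p = 5.77e-06), or 83.7% of control (95% interval 80.5% to 87.0%), and 109 of the 24671 genes had a smaller p. SNW1 was called in each of the 24 other fits that were run, with values from -0.29 to -0.23.

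SNW1 lies on chromosome 14 at 77717599 to 77761207 (minus strand, GENCODE v29, GRCh38), and 121 of its exonic bases overlap SLIRP and C14orf178 on the other strand. SLIRP was at -0.06 (edgeR adjusted p = 0.315) and did not pass the test, and C14orf178 was at 0.269 CPM in siNC. CDC5L, a Myb-related protein, and PLRG1, a WD-repeat protein, bind each other in the human Prp19 complex, and both fell. CDC5L was at 80.4, 82.4 and 84.1 CPM in siNC and at 75.3, 76.2 and 81.6 CPM in siZCC. Of its siZCC libraries, 5 lay below all of siNC, and siZCC replicate 2 lay within the siNC range. The log2 fold change was -0.10 (SE 0.0269, edgeR adjusted p = 0.0128).

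PLRG1 was at 67.0, 69.4 and 69.7 CPM in siNC and at 62.5, 65.8 and 66.2 CPM in siZCC, with no overlap, and its log2 fold change was -0.08 (SE 0.0251, edgeR adjusted p = 0.0294). This call was lost when any of siNC replicates 1, 2 and 6 or siZCC replicates 1 and 3 was left out, with a range of -0.09 to -0.07 and of 0.0251 to 0.0644 in edgeR adjusted p over the fits that left out 1 library. SYF2, which joins the complex beside CRNKL1, was at 30.8, 31.3 and 35.1 CPM in siNC and at 28.0, 29.4 and 31.2 CPM in siZCC. Here 2 siZCC libraries lay within the siNC range. The log2 fold change of SYF2 was -0.11 (SE 0.0386, edgeR adjusted p = 0.0438), and the call was lost when any of siNC replicates 1, 3, 4 and 6 or siZCC replicates 1, 3, 4 and 5 was left out, with a range of -0.13 to -0.08 and of 0.0258 to 0.0987 in edgeR adjusted p.

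The 4 genes of this subcomplex that were not called did not share a direction. BUD31, a small zinc-binding protein of the activated spliceosome, was at 57.4, 58.9 and 64.7 CPM in siNC and at 55.5, 56.7 and 57.2 CPM in siZCC, with no overlap, and its fold change of -0.08 missed the threshold (SE 0.0308, edgeR adjusted p = 0.0644). PRPF19, the ubiquitin ligase that gives the complex its name, was at -0.03 (95% interval -0.09 to 0.04). CRNKL1 was at 0.04 (95% interval -0.02 to 0.11) and CDC40, which acts at the second step of splicing, at 0.06 (95% interval -0.02 to 0.14).

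**Figure D3:**
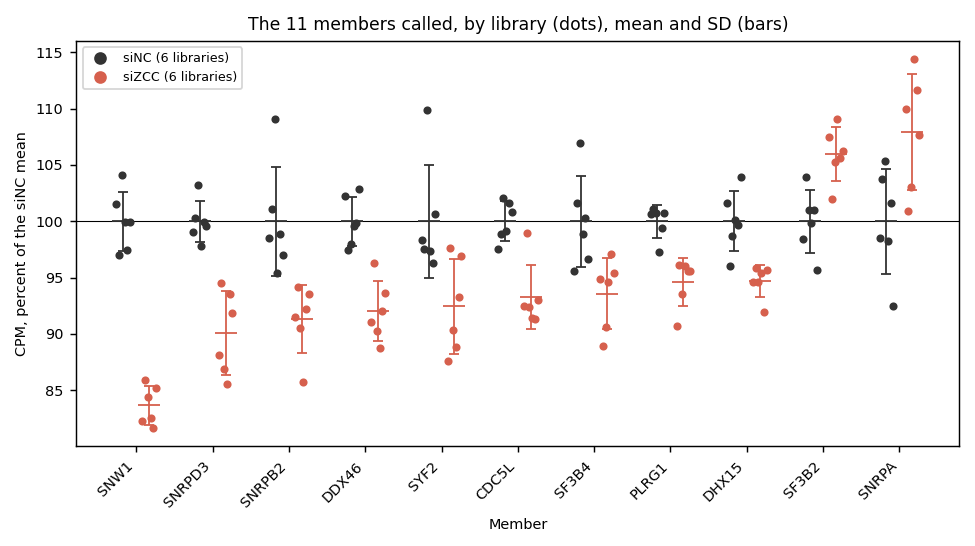
CPM in each of the 12 libraries of the 11 called genes, as a percent of the siNC mean of the gene (black siNC, red siZCC), with mean and SD as bars. SNW1, SNRPD3, SNRPB2, DDX46, PLRG1 and DHX15 show no overlap of the groups, whereas SYF2, CDC5L, SF3B4, SF3B2 and SNRPA overlap in 1 or more libraries.

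Of the 8 helicases 2 were called, both lower, with a median of -0.05 over the 8. DDX46, the human form of yeast Prp5, acts when U2 is fixed at the branch point. It was at 92.9, 95 and 98.0 CPM in siNC and at 84.5, 87.2 and 91.8 CPM in siZCC, with no overlap. DDX46 fell by 0.12 on the log2 scale (SE 0.0271, edgeR adjusted p = 0.0044), to 92.0% of control (95% interval 88.4% to 95.8%). C5orf24, whose exons share 236 bases with those of DDX46 on the same strand, was at -0.02 (edgeR adjusted p = 0.706). DHX15, the human form of Prp43, takes the spent spliceosome apart. It was at 146.4, 152 and 158 CPM in siNC and at 140.2, 145 and 146.1 CPM in siZCC, so the groups only just did not overlap.

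DHX15 had a log2 fold change of -0.08 (SE 0.0255, edgeR adjusted p = 0.0341). Its call was lost when any of siNC replicates 1, 4, 5 and 6 or siZCC replicates 1, 3, 4 and 5 was left out, with a range of -0.09 to -0.07 and of 0.0205 to 0.0879 in edgeR adjusted p. DDX23 (Prp28, which displaces U1) and DDX5 (p68) were at -0.08 and -0.07 and did not pass, with edgeR adjusted p-values of 0.0591 and 0.0546. The DEAH-box proteins of the catalytic steps were at -0.03 (DHX16), 0.04 (DHX38) and -0.02 (DHX8), and AQR, which binds the intron, at 0.04, none of them called. The summed level of the helicases was 1461 to 1503 CPM in siNC and 1392 to 1455 CPM in siZCC, with no overlap, and DDX5 made up 55.4% of that sum in siNC. For this sum too, the share of other gene sets without overlap was not computed.

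In the core of the exon junction complex 0 of 3 genes were called, and all 3 lay below 0. EIF4A3, the helicase that clamps the complex on the mRNA, had the smallest p. It was at 68.0, 70.1 and 72.9 CPM in siNC and at 63.5, 67.8 and 69.3 CPM in siZCC, with 2 siZCC libraries in the siNC range (log2 fold change -0.06, SE 0.0284, edgeR adjusted p = 0.154). RBM8A and MAGOH, the pair that locks EIF4A3, were at -0.05 and -0.03. No gene passed, and the summed level of the 3 only just did not overlap between groups. It was 248.8 to 256 CPM in siNC and 237 to 247.9 CPM in siZCC. RBM8A held the largest part of this sum, with a median of 165.1 CPM in siNC. CASC3, listed here with the peripheral proteins of the complex, is not in this sum. CASC3 was called higher, at 163.8 to 182.9 CPM in siNC and 185.5 to 195.8 CPM in siZCC. A sum with CASC3 was not computed. How often sums of other gene sets do not overlap was not computed.

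**Figure D4:**
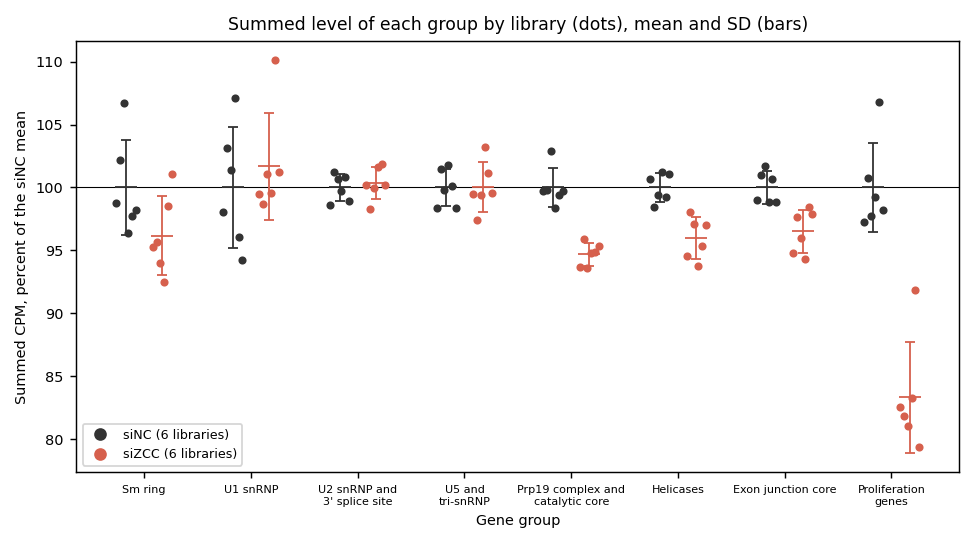
Summed CPM of each subcomplex and of the 23 proliferation genes in each library, as a percent of the siNC mean (black siNC, red siZCC), with mean and SD as bars. The Prp19 complex, the helicases, the exon junction core and the proliferation genes show no overlap of the groups, while the other 4 subcomplexes do. SNRNP200 and CASC3, which were called higher, are in none of these sums. How often sums of other gene sets do not overlap was not computed.

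Further genes of the pathway were taken from lists of paralogs, further snRNP and step proteins, the minor spliceosome and snRNP assembly. Of their 84 proteins 83 were tested, and 15 were called, 6 higher and 9 lower, with a median of -0.02. The 18.1% called stands beside 22.2% of all genes tested and 32% of the abundant genes, so these proteins as a whole held no larger share of calls. SNRNP200, the U5 helicase that unwinds U4 from U6 and is bound by PRPF8, rose. It was at 436, 455 and 480.4 CPM in siNC and at 486, 507 and 527 CPM in siZCC, with no overlap (log2 fold change 0.14, SE 0.0308, edgeR adjusted p = 0.0033). It was the only one of the 8 further tri-snRNP proteins that was called.

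Assembly factors of snRNPs gave 5 calls among 17, of which 4 were lower. Of all genes tested 22.2% were called, and of the abundant genes 32%. The difference from these shares was not tested. DDX20 (Gemin3), a helicase of the SMN complex that loads Sm rings, fell by 0.16 on the log2 scale, from 31.7 to 28.4 CPM (SE 0.0265, edgeR adjusted p = 4.11e-04), and PHAX, the export adaptor of snRNAs, fell by 0.14, from 69.1 to 62.6 CPM (SE 0.0279, edgeR adjusted p = 0.0017). COIL, the scaffold of Cajal bodies, and TGS1, which trims the cap of snRNAs, also fell, and CLNS1A, which holds Sm proteins before they are loaded, rose. Among the 15 further Prp19-related and step proteins 1 fell, SLU7 (-0.13, edgeR adjusted p = 0.0068), and 1 rose, XAB2 (0.14, edgeR adjusted p = 0.0104).

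The 7 further U1 proteins held LUC7L3, which fell (-0.11, edgeR adjusted p = 0.0096), and PRPF40B, which rose (0.10, edgeR adjusted p = 0.0277). The 10 further U2 proteins held CHERP, which rose (0.11, edgeR adjusted p = 0.0204), and SUGP1, which fell (-0.09, edgeR adjusted p = 0.0343). Of the 7 proteins of the LSm ring of U6 only LSM3 was called (-0.13, edgeR adjusted p = 0.0318), and of the 5 peripheral exon junction proteins CASC3 was higher (0.11, edgeR adjusted p = 0.0127) and ACIN1 lower (-0.08, edgeR adjusted p = 0.0426). By edgeR none of the 5 paralogs and none of the 9 minor spliceosome proteins tested was called. Of 20 snRNA genes 3 passed the filter on low counts, and none of these was called.

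Genes of other groups were also called in the same libraries. Over all genes tested 22.2% were called, 10.8% lower and 11.4% higher, and 9.74% did not overlap. Among the 12728 abundant genes 32% were called. No list was tested against these shares. Of the 23 proliferation genes 16 were lower and 0 higher, 15 did not overlap, their median was -0.33, and their summed level was 1481 to 1626 CPM in siNC and 1209 to 1399 CPM in siZCC. Among siZCC libraries replicate 5 was the highest of these. MKI67 was at 177, 208 and 223 CPM in siNC and at 127, 141 and 167 CPM in siZCC, with no overlap. Of the 16 neuron markers 7 were lower and 1 higher (median -0.14), with a summed level of 4284 to 4781 CPM in siNC and 3857 to 4408 in siZCC. Of the 10 astrocyte markers 5 were higher and 1 lower (median 0.13), with sums of 2771 to 2953 CPM in siNC and 2953 to 3324 in siZCC, and of the 12 progenitor markers 4 were higher and 1 lower (median 0.04), with sums of 6439 to 6843 and 6483 to 7032 CPM. Of the smaller lists, 1 of 6 oligodendrocyte markers tested was lower, 2 of 8 mesenchymal markers were lower and 1 higher, 2 of 5 endothelial markers tested were lower, and of 3 pluripotency markers tested 1 was lower and 1 higher. The part of these differences in the calls of spliceosome genes was not tested.

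The calls were also counted by base composition, taken from the longest annotated transcript of each gene. Shares of all genes in each GC class were not computed, and no difference between classes was tested. Over all genes tested, whatever their GC, 50.4% lay below 0, 10.8% were called lower and 11.4% higher. Of the 21 members with under 45% GC 15 lay below 0 and 6 were called lower, with a median of -0.07. Of the 12 genes between 45% and 52% GC 11 lay below 0 (2 called lower, 1 higher, median -0.05), and of the 18 genes over 52% GC 9 did (1 called lower, 1 higher, median -0.0026). With GC content and length corrected in the fit, again 11 genes were called, 3 higher and 8 lower, of which 7 were among the 11 above. Those lost were SYF2, DHX15, PLRG1 and SF3B2, and those gained were CDC40, BUD31, DDX23 and CRNKL1.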

How the data were processed

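Total RNA of 12 libraries was sequenced after preparation with a strand-keeping kit, per the labels' protocols. Per the submitters' processing notes, bcl2fastq 2.17, STAR 2.7.6a and featureCounts 2.0.1 were used with GRCh38; the annotation, the strand setting and the treatment of reads with several matches are not given in the sources used here. The authors deposited whole-number counts per gene symbol, 1 column per library, and these counts were used as deposited.

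The members and lists were chosen with earlier results of these data known. Genes were kept by filterByExpr (about 0.0997 CPM in enough libraries), scaled by TMM and tested with edgeR 4.0.16 (quasi-likelihood, no covariates) in R 4.3.3, with Benjamini-Hochberg adjustment over 24671 genes and a threshold of 0.05. The SE is the size of the log2 fold change divided by the square root of F, and intervals are 95%. GENCODE v29 gave positions, lengths (APPRIS principal transcript) and GC content, and 92.2% of symbols were found in it. Depth was 76115083 counts or more per library. For members with few counts (323 in the lowest, U2AF1) counting error is not small against the spread between libraries.

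Alternatives were upper quartile scaling and DESeq2 size factors, a mean count from 50 up or no filter, voom (limma 3.58.1), DESeq2 1.42.0 (Wald test), 1 surrogate variable (sva 3.50.0), a block for the replicate number, GC content and length as a correction, a split of the libraries by IL1B counts, and leaving out each library. Named with values are ZCCHC17, SNRNP40, called members, the smallest p of each subcomplex, the extremes of level, and up to 2 called genes of each further list; further members are given by level or interval. BUD31, COIL, TGS1, CLNS1A, C19orf54 and the other overlapping genes, and the genes in the marker lists, were chosen after values were seen. Splicing was not analysed here.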

Additional observations from a re-analysis of the deposited data

Results flagged for a closer look

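Within each group of 6 libraries, 10 of 104 gene and group pairs had 1 library apart from the rest by Dixon's test, where chance gives about 5.2. Values are log2 CPM. In siNC replicate 3, SNRPE was at 5.02 (the other 5 libraries 4.82 to 4.89), SF3B6 at 5.58 (5.37 to 5.42) and SYF2 at 5.14 (4.95 to 5.01). In siZCC replicate 2, SF3B5 was at 5.63 (5.79 to 5.87), EIF4A3 at 5.99 (6.07 to 6.12), U2AF1 at 2.43 (2.10 to 2.22) and CDC5L at 6.35 (6.24 to 6.26). In siZCC replicate 5, SNRNP70 was at 8.21 (8.01 to 8.08), PRPF3 at 5.67 (5.63 to 5.64) and DHX15 at 7.13 (7.17 to 7.19). Without siNC replicate 3 or without siZCC replicate 5 SYF2 was no longer called, and without siZCC replicate 5 neither was DHX15, while CDC5L was called without siZCC replicate 2.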

How the results depend on the processing

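Of the 51 genes 11 were called. That number was 6 with no filter on low counts, and 6 to 11 when 1 library was left out (6 when it was siNC replicate 1 or 6, or siZCC replicate 1, 3 or 4, and 7 when it was siNC replicate 4). With the replicate number as a block 5 were called (SNRPD3, SNRPB2, CDC5L, SNW1 and DDX46, all lower). Between libraries with the same number, deviations from the group mean had correlations of -0.08 to 0.02. Correlations for unlike numbers are not given here. Whether the numbers mark a shared culture or day is therefore not settled. In the 3 libraries per group with high IL1B counts 3 genes were called and 2043 genes in all, and in the 3 with low counts 1 (SNW1) and 1602 in all, each with fewer libraries, against 5481. In all other fits 10 to 14 of the 51 were called. Under upper quartile scaling 46.4% of all called genes were higher, against 51.4%, and 0 of the 51. No called gene changed direction in any of the 24 fits, and ZCCHC17 was called in each.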
